A study of Mus musculus with 14 samples.

Results

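A set of 10 genes that govern passage through the G1 phase of the cell cycle were followed in microglia from mice with and without a microbiota. They are the D-type cyclin genes Ccnd1, Ccnd2 and Ccnd3, the cyclin-dependent kinase genes Cdk2, Cdk4 and Cdk6, the kinase inhibitor genes Cdkn1a and Cdkn1b, and the pocket protein genes Rb1 and Rbl2. They were chosen by name, and all 10 were found among the 14217 genes of the deposited table. Where a gene had several transcript rows, namely Ccnd3 with 3 and Cdk2 and Cdkn1a with 2 each, the rows of that gene were identical in all libraries.

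Microglia, the macrophages of the brain parenchyma, came from untreated C57BL/6 mice aged 6 to 8 weeks. One group was housed under specific-pathogen-free (SPF) conditions and the other was germ-free (GF), with 7 libraries each. Cells were sorted as CD11b+ with low CD45, with 1000 cells per brain per the series design, and libraries covered the 3' ends of polyadenylated RNA. The labels do not say that each library came from a separate animal, so p-values measure the spread between these libraries.

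In textbook accounts, mitogens raise D-type cyclins, which bind and activate CDK4 and CDK6, and the kinases then phosphorylate the retinoblastoma protein and its relatives. Phosphorylation frees E2F transcription factors, which switch on cyclin E, CDK2 activity and the genes of DNA replication. The inhibitors p21, encoded by Cdkn1a, and p27, encoded by Cdkn1b, hold CDK2 back and also take part in assembling cyclin D with its kinases. Microglia in the healthy adult brain divide rarely and renew themselves slowly, in dependence on the receptor CSF1R.

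Depth was 680082 to 1190250 read equivalents per library in GF, against 907568 to 1634680 in SPF (exact permutation p = 0.0539, two-sided, n = 7 each). GF libraries had more genes at 0, 25.1% ± 1.54 against 21.9% ± 1.59 of genes (SD, n = 7 each, exact permutation p = 0.00175), and a larger sum of normalized counts, 1482040 ± 31749 against 1404070 ± 27006 (SD, n = 7 each, exact permutation p = 0.00146). The part of these differences in the results was not tested. A read equivalent is the smallest regular step of the values within a library, taken to stand for 1 read. All 14 microglia markers examined were tested, and their summed level lay between 68932 and 77867 normalized counts in GF and between 59103 and 68872 in SPF. Summed markers of other cells reached at most 320 normalized counts in any library for oligodendrocytes, 265 for astrocytes, 112 for lymphocytes, 91.9 for endothelium and pericytes, 40.2 for border macrophages, 30.6 for neurons and 11.5 for monocytes and neutrophils. Larger maxima were found for dendritic cell markers, at 2167 in GF against 140 in SPF, and for erythroid markers, at 3652 against 113. The erythroid sum counts both Hba-a1 and Hba-a2, whose values are identical, and likewise Hbb-b1 and Hbb-b2. Oligodendrocyte markers summed to 265 to 320 in SPF against 209 to 278 in GF, and endothelial and pericyte markers to 62.8 to 91.9 against 17.4 to 71.3. The border macrophage gene Mrc1, chosen after its values were seen, was at 12.4 ± 10.4 in SPF against 3.82 ± 6.82 in GF (SD over n = 7 libraries each, limma adjusted p = 0.0896). The part of these cells in the results was not tested. Single libraries stood apart, with class II transcripts high in GF 1 (H2-Aa at 931, against at most 11.8 elsewhere) and globin transcripts high in GF 6 (Hba-a1 at 1393, against at most 44.1 elsewhere). GF 6 was also the shallowest library.

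Of the 10 genes, Ccnd3 alone passed the test. It was higher in GF, while no gene of the set was called lower. Cdk4 and Cdkn1b stood higher and Ccnd1 lower in GF without passing, and Ccnd2 was barely detected in either group. A positive log2 difference means a higher level in GF, computed after adding a pseudocount of 1.44 to the normalized counts, which understates changes of low genes. Adjusted p-values come from limma, with Benjamini-Hochberg adjustment over the 8822 genes whose mean reached 7.22 normalized counts. The 9 genes other than Ccnd2 passed this filter. Over all genes tested 6.76% were called, 3.68% higher and 3.07% lower in GF, so a count of 1 among 9 does not set these genes apart from the rest. At an unadjusted p under 0.05 there were 4 of the 9, against 21.9% of all genes. The median log2 difference of the 9 was 0.19, and that of all genes tested was -0.016.

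**Figure D1:**
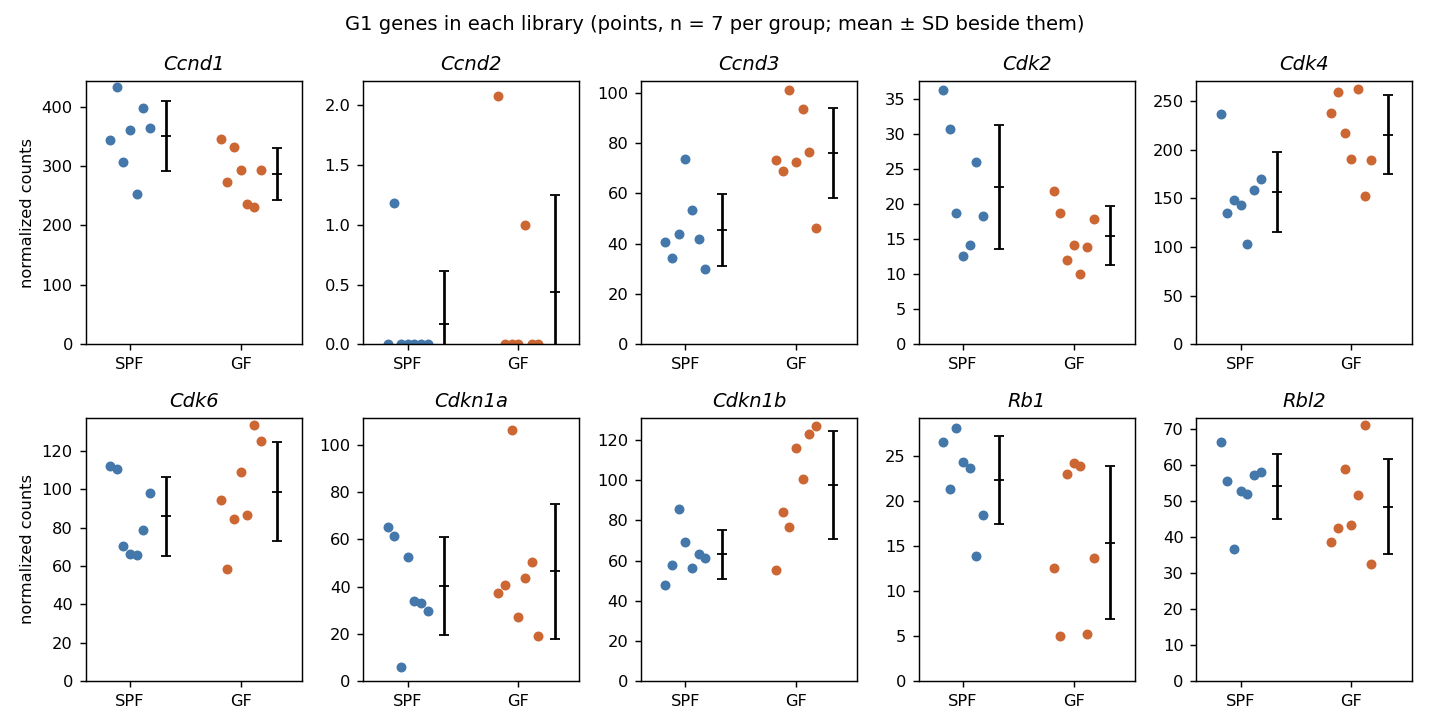
Normalized counts of each of the 10 genes (vertical axes, from 0, with a scale of their own) in each SPF and GF library, with the mean ± SD of 7 libraries beside the points. For Ccnd3, 5 SPF libraries lie below every GF library and 3 GF libraries above every SPF library; Ccnd2 is at 0 in 11 of the 14.

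Among the D-type cyclin genes Ccnd3 alone was called, in a call that depended on the setting. Ccnd3 lay between 30.03 and 73.6 normalized counts in SPF, with a median of 41.97, and between 46.3 and 101 in GF, with a median of 73.4. The ranges overlapped through SPF 4, the highest SPF library, and GF 7, the lowest GF library, but all 7 GF libraries stood above the SPF median. Ccnd3 rose from 45.4 ± 14.4 to 76.01 ± 17.8 (SD over n = 7 libraries each), a log2 difference of 0.74 ± 0.21 (SE, limma adjusted p = 0.0335), or 1.67-fold. Since each library pools sorted cells, more cells with the transcript and more transcript per cell cannot be told apart.

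The call of Ccnd3 lay close to the threshold, while its direction and size moved little. The log2 difference ranged from 0.66 to 0.87 over 25 other settings, and the call was lost in 11 of them. Among these were the omission of any 1 of SPF 1, SPF 2, SPF 6, SPF 7, GF 1, GF 3, GF 5 or GF 6 (limma adjusted p 0.0504 to 0.0800), and of GF 1, GF 6 and SPF 2 together (limma adjusted p = 0.127).

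The counting of Ccnd3 has 2 measured limits. In 6 of 14 libraries its value was not a whole number of read equivalents, for which no reason is recorded, whereas Ccnd1, Cdk2, Cdkn1a, Cdkn1b, Rb1 and Rbl2 were at whole numbers in all 14. In the GENCODE annotation of the later build GRCm38, the 3' end of Ccnd3 also lies within Bysl, a ribosome biogenesis gene of the opposite strand, and the labels and notes used here do not say whether counting used strand. Bysl stood at 15.7 ± 6.16 in SPF against 22.4 ± 11.6 in GF (SD over n = 7 libraries each), a log2 difference of 0.44 ± 0.35 (SE, limma adjusted p = 0.507). The part of either in the result was not tested.

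Because Ccnd3 was the gene that passed, the 250 bases before each of its RefSeq start sites are shown (RefSeq, GRCm38.p6, plus strand), at chr17:47504801-47505050 for the upstream start and chr17:47593217-47593466 for the downstream one. Reads from 3' ends do not say which start was used. Capitals mark the motif GTAAACA of FOXO factors, which restrain the cell cycle, searched on both strands, and the upstream window holds it as its reverse complement.
Ccnd3, upstream start: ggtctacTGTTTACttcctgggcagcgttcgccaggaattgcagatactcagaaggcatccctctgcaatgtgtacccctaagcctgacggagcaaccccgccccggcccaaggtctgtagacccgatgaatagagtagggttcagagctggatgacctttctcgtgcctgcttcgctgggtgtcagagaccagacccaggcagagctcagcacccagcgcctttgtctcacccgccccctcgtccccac
Ccnd3, downstream start: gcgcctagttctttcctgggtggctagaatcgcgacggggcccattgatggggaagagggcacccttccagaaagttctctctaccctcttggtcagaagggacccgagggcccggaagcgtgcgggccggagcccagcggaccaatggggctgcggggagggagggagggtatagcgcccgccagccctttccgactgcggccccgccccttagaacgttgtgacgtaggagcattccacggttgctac
The FOXO motif is present in 3.17% of the 32851 RefSeq windows of this length. Neither window held CACGTG, the E-box bound by MYC, or any of the E2F forms TTTCCCGC, TTTGGCGC, TTTCGCGC and TTTGCCGC. A match of letters is a description of the window.

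Cyclin D1 showed the opposite tendency without passing. Ccnd1 lay between 253 and 433 normalized counts in SPF, with a median of 360.2, and between 231 and 346 in GF, with a median of 293. All 7 GF libraries were below the SPF median, and 4 SPF libraries lay above every GF library. The means were 351 ± 58.98 and 286 ± 43.7 (SD over n = 7 libraries each), a log2 difference of -0.29 ± 0.13 (SE, limma adjusted p = 0.173). Its spread was small, with a coefficient of variation of 16.8% in SPF and 15.3% in GF. The 3' end of Ccnd1 lies within Lto1 of the opposite strand, listed under its older name Oraov1, which stood at 20.2 ± 11.5 and 25.9 ± 5.77 (SD over n = 7 libraries each).

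Cyclin D2 was at the limit of detection. Ccnd2 was at 0 in 11 of 14 libraries, and its total over all libraries was 4 read equivalents, namely 2 in GF 1, 1 in GF 5 and 1 in SPF 2. No fold is given, because both groups lay under the floor of 3 reads per library. At this depth a difference was not detectable.

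The balance of cyclin D3 to cyclin D1 transcripts stood higher in the GF libraries. The log2 ratio of Ccnd3 to Ccnd1 within a library is unchanged by scaling with 1 factor per library, apart from the pseudocount. Whether the deposited values were scaled in that way is not recorded. The log2 ratio lay between -3.60 and -2.21 in SPF, with a median of -3.03, and between -2.63 and -1.32 in GF, with a median of -1.97. In 5 of 7 GF libraries it was above every SPF library. The mean was -2.95 ± 0.56 in SPF and -1.91 ± 0.43 in GF (SD over n = 7 libraries each), a difference of 1.03 (exact permutation p = 0.00408, adjusted p = 0.0204 over 5 ratios, two-sided). The result holds Ccnd3 itself and is not independent of its call. The ratios were also chosen with earlier results of these data known, so this p is not that of a fresh test. The call was kept without any single library (exact permutation adjusted p 0.0117 to 0.0466) and lost without GF 1, GF 6 and SPF 2 together, where the difference was 0.92 (exact permutation adjusted p = 0.108). Under quantile normalization, which applies more than 1 factor per library, the difference was 1.12 (exact permutation adjusted p = 0.0146).

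**Figure D2:**
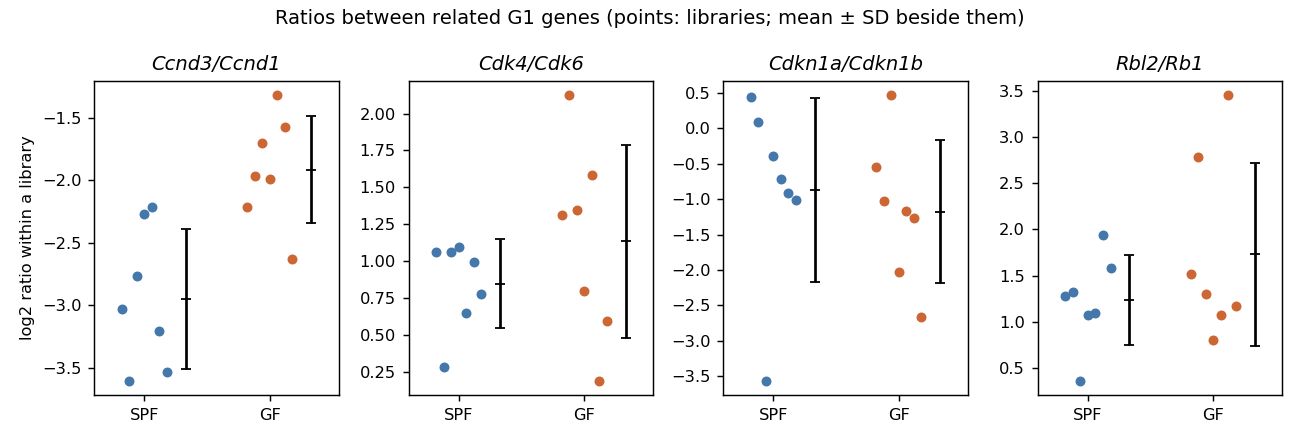
Log2 ratios between related genes within each library (vertical axis) in SPF and GF, with the mean ± SD of 7 libraries beside the points. For Ccnd3/Ccnd1, 5 GF libraries lie above every SPF library; the other 3 ratios overlap more widely.

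Among the kinases none passed, and Cdk4 came nearest. Cdk4, the main partner of D-type cyclins together with Cdk6, lay between 103 and 236.5 normalized counts in SPF, with a median of 149, and between 153 and 263 in GF, with a median of 217. All 7 GF libraries were above the SPF median, and 4 SPF libraries were below every GF library, while SPF 1 at 236.5 stood among the higher GF libraries. The means were 156 ± 41.1 and 216 ± 40.5 (SD over n = 7 libraries each), a log2 difference of 0.48 ± 0.16 (SE, limma adjusted p = 0.0686). Without SPF 1 the adjusted p was 0.0194 and without GF 6 it was 0.0343, and over all 25 other settings it lay between 0.0194 and 0.158. The 3' end of Cdk4 lies within Tspan31, a tetraspanin gene of the opposite strand, which stood at 347 ± 87.5 in SPF against 374 ± 45.1 in GF (SD over n = 7 libraries each, limma adjusted p = 0.603).

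The window before the Cdk4 start is shown because it holds a repeated motif (RefSeq, GRCm38.p6, chr10:127063285-127063534, plus strand), with the E-box CACGTG in capitals.
Cdk4: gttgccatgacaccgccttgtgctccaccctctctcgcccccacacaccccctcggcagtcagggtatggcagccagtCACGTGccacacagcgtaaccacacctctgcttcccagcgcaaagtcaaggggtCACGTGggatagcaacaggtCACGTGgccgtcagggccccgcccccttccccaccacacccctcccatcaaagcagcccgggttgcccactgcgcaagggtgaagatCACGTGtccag
It holds 4 E-boxes, a number reached by 7 of the 32851 windows, or 0.0213%, while 6.02% hold at least 1. The window was picked for this motif from 9 windows of the set, so the share is that of a picked extreme. Of the windows not shown, that of Cdk6 held 1 E-box and that of Cdk2 held 1 E2F form. Myc, whose product binds E-boxes and is known to activate Cdk4, stood at 80.1 ± 13.5 in SPF against 64.7 ± 21.3 in GF (SD over n = 7 libraries each), a log2 difference of -0.36 ± 0.21 (SE, limma adjusted p = 0.324). Myc was chosen after its values were seen.

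Cdk6 and Cdk2 did not pass. Cdk6 lay between 65.5 and 112 normalized counts in SPF, with a median of 78.7, and between 58.3 and 134 in GF, with a median of 94.7. Every SPF library fell within the GF range, and the log2 difference was 0.19 ± 0.19 (SE, limma adjusted p = 0.611). Cdk2, the kinase of cyclins E and A, lay between 12.5 and 36.2 in SPF, with a median of 18.7, and between 9.95 and 21.9 in GF, with a median of 14.1. Its counts were low, at 8 to 41 read equivalents per library. The 3 highest values of Cdk2 were in SPF 1, SPF 2 and SPF 6, and the log2 difference was -0.45 ± 0.32 (SE, limma adjusted p = 0.432). The log2 ratio of Cdk4 to Cdk6 averaged 0.85 ± 0.30 in SPF against 1.14 ± 0.65 in GF (SD over n = 7 libraries each, exact permutation adjusted p = 0.393 over 5 ratios), and was more spread in GF.

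Of the inhibitors, Cdkn1b stood higher in GF, just outside the threshold. Cdkn1b, the gene of p27, which is associated with quiescence, lay between 47.7 and 85.8 normalized counts in SPF, with a median of 61.5, and between 55.2 and 127 in GF, with a median of 101. In GF, 4 libraries were above every SPF library and GF 1 alone was below the SPF median. The means were 63.1 ± 12.04 and 97.6 ± 26.8 (SD over n = 7 libraries each), a log2 difference of 0.59 ± 0.19 (SE, limma adjusted p = 0.0656). Without GF 1, the library with high class II transcripts, the log2 difference was 0.71 (limma adjusted p = 0.0199), and without SPF 3 it was 0.66 (limma adjusted p = 0.0443). Over all 25 other settings the adjusted p lay between 0.0199 and 0.130. Unlike Ccnd3 and Cdk4, this gene has no protein-coding gene of the opposite strand over its 3' end in that annotation, and all of its values were whole read equivalents.

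The window before the Cdkn1b start is shown for comparison (RefSeq, GRCm38.p6, chr6:134920151-134920400, plus strand), since p27 is known as a product that FOXO factors raise.
Cdkn1b: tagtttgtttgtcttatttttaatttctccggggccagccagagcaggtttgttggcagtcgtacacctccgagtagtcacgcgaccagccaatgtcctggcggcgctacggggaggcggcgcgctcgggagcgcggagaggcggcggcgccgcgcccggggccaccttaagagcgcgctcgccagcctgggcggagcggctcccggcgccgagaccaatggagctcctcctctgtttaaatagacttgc
It held none of the FOXO, E-box and E2F letters searched, and so has no capitals, and says nothing about sites elsewhere. Foxo1, a FOXO gene chosen after its values were seen, stood at 66.5 ± 10.7 in SPF against 58.1 ± 19.5 in GF (SD over n = 7 libraries each, limma adjusted p = 0.537).

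Cdkn1a, the gene of p21 and a target of p53, varied widely within both groups. It lay between 5.95 and 65.4 normalized counts in SPF, with a median of 33.8, and between 18.9 and 107 in GF, with a median of 40.5. SPF 3 was the lowest of all libraries and GF 3 the highest, and 6 of 7 libraries in each group fell within the range of the other. The coefficient of variation was 51.9% in SPF and 61.5% in GF. The log2 difference was 0.28 ± 0.39 (SE, limma adjusted p = 0.733) and turned to -0.10 without SPF 3 (limma adjusted p = 0.893). The log2 ratio of Cdkn1a to Cdkn1b averaged -0.87 ± 1.30 in SPF and -1.18 ± 1.01 in GF (SD over n = 7 libraries each, exact permutation adjusted p = 0.633 over 5 ratios).

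The pocket protein genes stood lower in GF without passing. Rb1, the retinoblastoma gene, lay between 13.8 and 28.04 normalized counts in SPF, with a median of 23.6, and between 4.94 and 24.2 in GF, with a median of 13.7. In GF, 4 libraries were below every SPF library, while GF 3, GF 4 and GF 5 lay near or above the SPF median. The log2 difference was -0.67 ± 0.36 (SE, limma adjusted p = 0.292), on 3 to 35 read equivalents per library. Rbl2, the gene of p130, which represses E2F targets in resting cells, lay between 36.5 and 66.3 in SPF, with a median of 55.6, and between 32.6 and 71.2 in GF, with a median of 43.4. The GF range of Rbl2 enclosed that of SPF, and the log2 difference was -0.18 ± 0.21 (SE, limma adjusted p = 0.664). The log2 ratio of Rbl2 to Rb1 averaged 1.24 ± 0.49 in SPF against 1.73 ± 0.99 in GF (SD over n = 7 libraries each, exact permutation adjusted p = 0.393 over 5 ratios). The 3' ends of both lie within genes of the opposite strand, Rcbtb2 for Rb1 and Aktip for Rbl2, whose log2 differences were -0.13 ± 0.16 and -0.54 ± 0.38 (SE, limma adjusted p = 0.685 and 0.431).

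**Figure D3:**
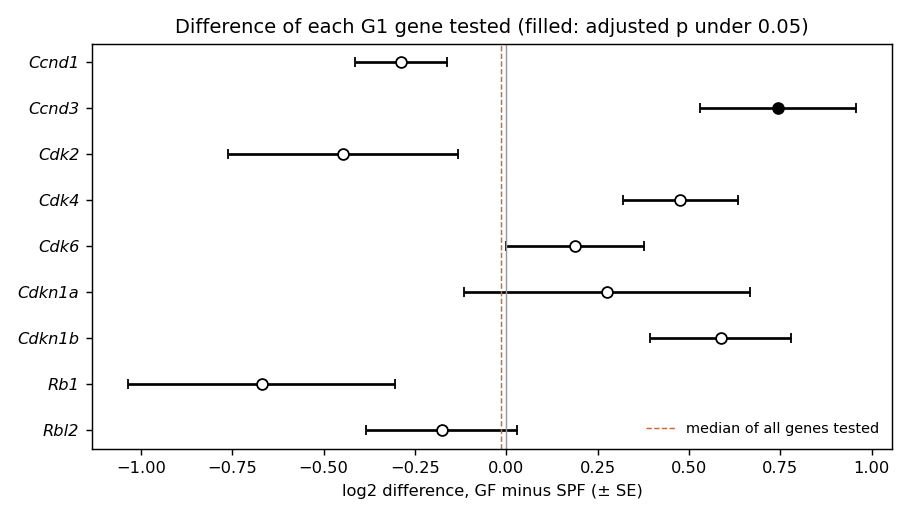
Log2 difference of each of the 9 genes tested (horizontal axis, GF minus SPF, ± SE), with the median of all genes tested as a dashed line. Ccnd3, at 0.74, is the single filled point; 4 genes lie below 0 and 5 above.

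No gene of the set separated the groups fully. In 0 of 9 genes did all GF libraries lie on one side of all SPF libraries, where 1.28% of all genes tested had GF wholly above and 0.895% wholly below. After group means were subtracted, pairs of the 9 genes had Pearson correlations from -0.63 to 0.76 over the 14 libraries, with a median of 0.04 over 36 pairs. The highest was that of Cdkn1a with Rbl2 (r = 0.76, Spearman rho = 0.74) and the lowest that of Ccnd3 with Cdk2 (r = -0.63, Spearman rho = -0.69). These values describe libraries that differ in depth, and no p is attached to pairs picked as extremes.

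Among 8821 other genes, those most like Ccnd3 over the 14 libraries, group means subtracted, were Zfp628, a zinc finger gene, with r = 0.82 and rho = 0.91, Oxld1, with r = 0.81 and rho = 0.83, and Rcn1, which encodes the calcium-binding protein reticulocalbin, with r = 0.80 and rho = 0.82. Without SPF 4 and GF 7, the libraries farthest from the median of Ccnd3, the correlations were 0.58, 0.65 and 0.71. Zfp628 stood at 54.9 ± 18.7 in SPF against 91.7 ± 27.4 in GF (SD over n = 7 libraries each, limma adjusted p = 0.0382), a call lost in 14 of 25 settings, while Oxld1 and Rcn1 did not pass (limma adjusted p = 0.899 and 0.792).

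**Figure D4:**
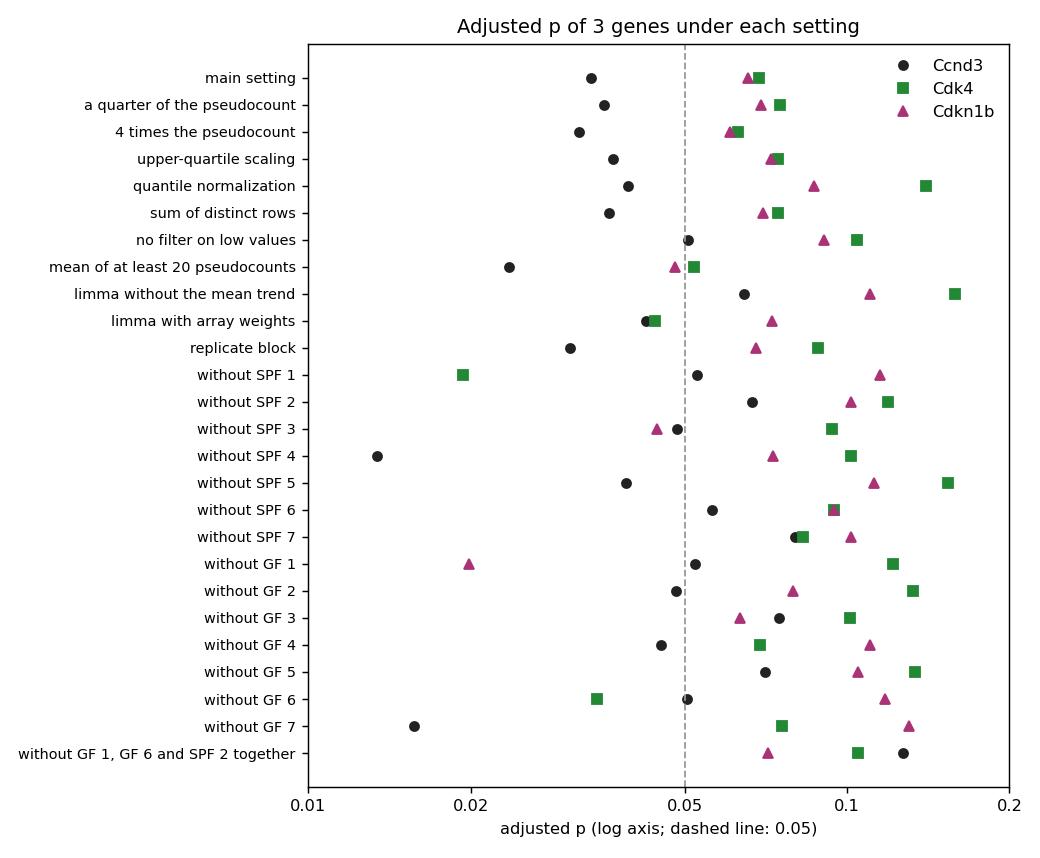
Adjusted p of Ccnd3, Cdk4 and Cdkn1b (horizontal log axis, with 0.05 dashed) under each setting (rows). Ccnd3 lies left of the line in the main setting and in 14 of 25 others; Cdk4 and Cdkn1b lie left of it in 3 each.

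Calls in the wider G1 machinery are to be read against the 6.76% of all genes tested that were called. With at most 2 calls per list, these counts do not set a list apart from that share. Counts at an unadjusted p under 0.05 are to be read against 21.9% of all genes. Of 12 other cyclin, kinase and inhibitor genes tested, none rose or fell in the limma fit, and 1 had an unadjusted p under 0.05, with a median log2 difference of -0.15. That gene was Cables1, which encodes an adaptor between kinases, at 191 ± 34.1 in SPF against 235 ± 31.3 in GF (SD over n = 7 libraries each, limma adjusted p = 0.172). The E-type and A-type cyclins that follow cyclin D were nearly absent, with Ccne1 at 0 in 12 libraries, Ccne2 in 13 and Ccna2 in 11. These 3 were chosen after their values were seen.

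Among 19 genes that act on the stability of G1 proteins, 0 rose and 1 fell, with a median of 0.15. An unadjusted p under 0.05 was found for 6, and log2 differences were above 0 in 12 and below 0 in 7. Cul1, the scaffold of the SCF ubiquitin ligase that marks p27 and G1 cyclins for degradation, fell from 81.01 ± 18.9 to 36.8 ± 9.98 (SD over n = 7 libraries each), a log2 difference of -1.11 ± 0.20 (SE, limma adjusted p = 0.00154). Its call was kept under all 25 other settings (limma adjusted p 0.000593 to 0.00664). Fbxw7, which directs SCF to cyclin E, stood at 56.3 ± 13.1 and 40.9 ± 12.9 (SD over n = 7 libraries each, limma adjusted p = 0.215), and was chosen after its values were seen. Genes of this list with a smaller p than Fbxw7 went in both directions. Some stood higher in GF. These include Gsk3a, with a log2 difference of 0.39 (limma adjusted p = 0.0829), and Dyrk1b, with 0.99 (limma adjusted p = 0.128). Cul4a, chosen after its values were seen, stood lower, with a log2 difference of -0.78 (limma adjusted p = 0.112).

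Of 13 genes of pocket proteins, E2F factors and the DREAM repressor complex, none passed in the limma fit and 2 had an unadjusted p under 0.05. The log2 difference was below 0 in 11 of the 13, with a median of -0.35, where 48.5% of all genes tested were above 0. That share is not matched for level. The median of all genes was -0.050 with no filter on low values and 0.038 with a mean of at least 20 pseudocounts. The part of low level in the count of 11 was not tested. The smallest p was that of Hdac1, a deacetylase recruited by pocket proteins, with 86.5 ± 21.7 in SPF against 61.5 ± 11.5 in GF (SD over n = 7 libraries each, limma adjusted p = 0.141). Rbl1, the third pocket protein gene, chosen after its values were seen, stood at 17.5 ± 6.77 and 8.81 ± 4.29 (SD over n = 7 libraries each, limma adjusted p = 0.212).

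Of 30 upstream genes, namely growth factor signalling and transcription factors, 2 rose and 0 fell, with a median of -0.034. An unadjusted p under 0.05 was found for 5. Cebpa, a myeloid factor known to restrain proliferation, rose from 358 ± 79.8 to 553 ± 80.9 (SD over n = 7 libraries each), a log2 difference of 0.64 ± 0.13 (SE, limma adjusted p = 0.00273). Csf1r rose by 0.30 (limma adjusted p = 0.00483), but was at -0.046 under quantile normalization (limma adjusted p = 0.614). The call of Csf1r was also lost with no filter on low values (limma adjusted p = 0.0565) and without the mean trend (limma adjusted p = 0.128). Akt1, which opposes p27 and FOXO activity, chosen after its values were seen, stood at 506 ± 118 in SPF against 645 ± 49.7 in GF (SD over n = 7 libraries each, limma adjusted p = 0.0657).

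Of 16 genes of p53 and its targets, 1 rose and 1 fell, with a median of 0.17. An unadjusted p under 0.05 was found for 8, in both directions, a larger share than the 21.9% of all genes. The list was chosen with earlier results of these data known and is not matched for level. The larger share is therefore not a result about this list. Ddit4, an inhibitor of mTORC1, rose by 3.28 on the log2 scale (limma adjusted p = 1.6e-05). Btg1, an antiproliferative gene, fell from 142 ± 17.6 to 101 ± 13.7 (SD over n = 7 libraries each), a log2 difference of -0.49 ± 0.14 (SE, limma adjusted p = 0.0319). The call of Btg1 did not hold in 9 of 25 settings, including the omission of any 1 of SPF 1, SPF 4, SPF 5, GF 2, GF 4 or GF 7 (limma adjusted p 0.05035 to 0.0800). The related gene Btg2, chosen after its values were seen, went the opposite way without passing. It stood at 200 ± 51.3 in SPF against 269 ± 33.4 in GF (SD over n = 7 libraries each), a log2 difference of 0.45 ± 0.14 (SE, limma adjusted p = 0.0581). In the whole list, log2 differences were above 0 in 9 genes and below 0 in 7.

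Transcripts of later phases were mostly too low to test. Of 34 S and G2/M genes in the table, 9 passed the filter on low values, and none was called in the limma fit, with 2 at an unadjusted p under 0.05 and a median of -0.15. The smallest p was that of Tubb5, a tubulin gene, at 252 ± 28.8 in SPF against 330.3 ± 64.7 in GF (SD over n = 7 libraries each, limma adjusted p = 0.0721). The other gene went the opposite way. Mcm6, a subunit of the replicative helicase, chosen after its values were seen, was at 12.6 ± 6.79 in SPF against 4.02 ± 3.93 in GF (SD over n = 7 libraries each), a log2 difference of -1.71 ± 0.58 (SE, limma adjusted p = 0.0741). The proliferation markers Mki67 and Top2a, chosen after their values were seen, were under the filter and each at 0 in 6 of 7 GF and 3 of 7 SPF libraries. Mki67 reached 15.3 normalized counts in SPF and 4.16 in GF, and Top2a 13.5 and 2.08. Genes under the filter went in both directions. Gins2 stood at 3.66 ± 2.96 in SPF against 7.93 ± 5.96 in GF (SD over n = 7 libraries each). Tyms stood at 5.29 ± 4.18 against 7.30 ± 4.88, and both were also chosen after their values were seen. Over all genes, 25.1% were at 0 in GF against 21.9% in SPF, and the part of depth in these zeros was not tested.

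**Figure D5:**
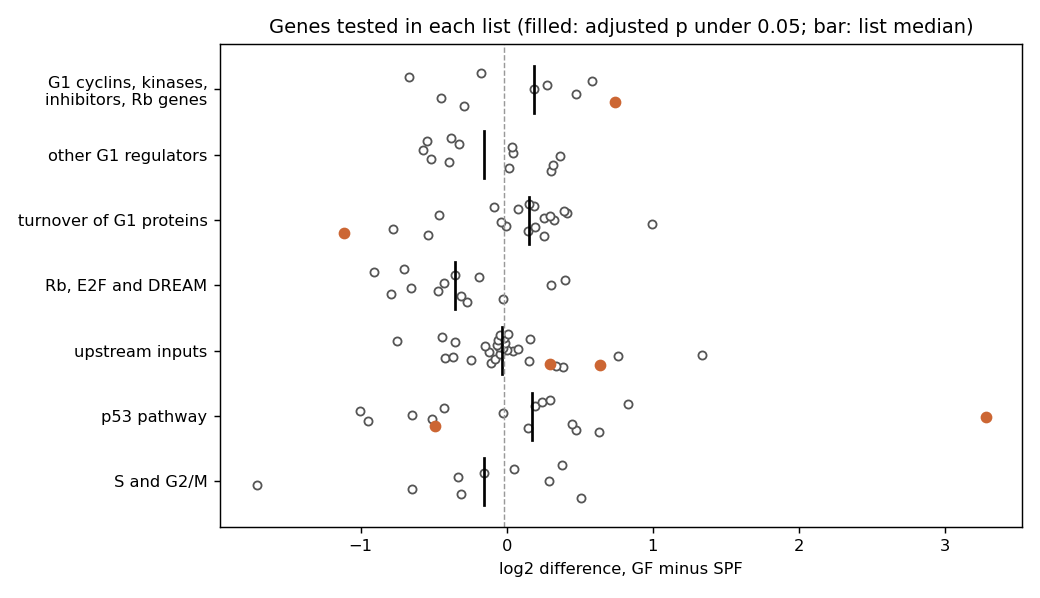
Log2 differences of the tested genes of each list (horizontal axis, GF minus SPF), with genes past the threshold filled and list medians as bars; the dashed line is the median of all genes tested. Filled points are Ccnd3, Cul1, Csf1r, Cebpa, Btg1 and Ddit4, the last at 3.28.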

How the data were processed

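The authors deposited normalized counts, a non-negative signal for each RefSeq transcript, after TopHat alignment to mm9, per the submitters' processing notes. The sources used here do not give the counting tool, its strand setting, versions or the scaling method. Library totals lay between 1356630 and 1520780. Between 84.5% and 86.7% of positive values were whole multiples, within 0.01, of a step of 1 read equivalent, too few to treat the values as reads, so a count model was not fitted.

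Of 18487 rows, the row with the highest mean per symbol was kept, and 217 rows without a symbol took the RefSeq name of their accession where one matched. Values were tested as log2(value + 1.44), the pseudocount being a millionth of the mean library total, with limma 3.58.1 in R 4.3.3 (mean trend, two-sided, threshold 0.05). Ratios were compared by exact permutation over 3432 divisions, the smallest p being 0.000583. The ratio of Ccnd3 to Ccnd2 was left unread because Ccnd2 was at 0 in 11 libraries. On simulated data for this comparison (8657 genes tested), recovery was 18.2% for 1.5-fold changes, 47.8% for 2-fold changes and 87.1% for 4-fold changes.

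All 10 genes are named whatever their result, with up to 4 genes past the threshold per list, or the gene with the smallest p, and the 3 genes most correlated with a called member. The members, lists and ratios were chosen with earlier results of these data known. The omission of GF 1, GF 6 and SPF 2 together was added after the data were seen. The labels give no batch, sex or cage.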

Additional observations from a re-analysis of the deposited data

Results flagged for a closer look

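A total of 3 values stood far from the other 6 libraries of their group by Dixon's criterion, out of 28 groups of values checked, and chance gives about 1 in 20. Cdkn1a in GF 3 was at 107 normalized counts, with the next library at 50.3 and a group median of 40.5. The log2 ratio of Cdkn1a to Cdkn1b in SPF 3 was -3.56, with the next library at -1.02 and a group median of -0.71; SPF 3 held the lowest Cdkn1a and the highest Cdkn1b of SPF. Ccnd2 in SPF 2 was at 1.18 normalized counts, which is 1 read equivalent, with the other 6 SPF libraries at 0.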

How the results depend on the processing

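The count of the 9 tested genes called higher in GF was 1 in the main setting and in 14 of 25 others. In 3 of those 14 the gene was not Ccnd3, but Cdk4 without SPF 1 or GF 6 and Cdkn1b without GF 1. It was 0 with no filter on low values, 0 without the mean trend, 0 without GF 1, GF 6 and SPF 2 together, 2 with a mean of at least 20 pseudocounts and 2 with array weights. It ranged from 0 to 2 over the omissions of a single library. The count of those called lower was 0 in all 25. Over all genes, 325 rose and 271 fell. The counts were 160 and 161 without the mean trend, and 154 and 166 without GF 1, GF 6 and SPF 2 together. Leaving out 1 library gave 242 to 337 rises and 171 to 291 falls, the latter lowest without SPF 7. With quantile normalization 46.9% of calls were rises, against 54.5%. The cause was not tested. The log2 differences that changed sign were Cdkn1a at -0.097 without SPF 3 (-0.097 to 0.45 over single omissions), Csf1r at -0.046 with quantile normalization and Oxld1 at -0.034 without GF 3 (-0.034 to 0.18). The GF minus SPF difference in the log2 ratio of Ccnd3 to Ccnd1 was 0.92 without GF 1, GF 6 and SPF 2 together (exact permutation adjusted p = 0.108), where fewer libraries were compared, and 0.92 to 1.15 without any single library.

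Replicate numbers did not pair the libraries, since same-numbered libraries had correlations of deviations between -0.056 and 0.047. With the replicate block Ccnd3 had an adjusted p of 0.0306 (limma), and 527 genes were called, of which 496 were among the 596. The call of Btg1 was lost under the replicate block (limma adjusted p = 0.0578). The ratio of Ccnd3 to Ccnd1 kept its difference of 1.03 under the replicate block (exact sign-flip p = 0.0156, adjusted p = 0.0781), the smallest p that 7 pairs allow, so it could not pass after adjustment over 5 ratios. Depth limits Ccnd2, Rb1 and Cdk2, whose values rest on few reads per library.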
